A study of Mus musculus with 2 samples.

Results

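Germ cells of a control culture of mouse undifferentiated spermatogonia were described by their most abundant, most germ-restricted and most variable transcripts, set against the fibroblast feeder cells captured in the same single-cell library. A cell was taken as a germ cell when it held at least 1000 UMIs (unique molecular identifiers, 1 per captured transcript molecule) in named genes and more UMIs of Ddx4, Dazl, Mael, Dnd1 and Zbtb16 together than of Col1a1, Col1a2, Col3a1, Fn1 and Sparc together. This gave 730 germ cells of 816 complete cells in the control library (89.5%, exact binomial 95% interval 87.1% to 91.5%), and of 1676 complete cells in the whole series. Cells with a summed fibroblast marker count at least 5 times the germ marker count were taken as feeder cells, and there were 78 (9.56%, interval 7.63% to 11.8%). The other 8 cells were in neither class.

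The cultures were begun from THY1-selected cells of adult C57BL/6 mouse testes and were kept in medium without serum that was given GDNF and bFGF, both growth factors. The feeder layer was SNL76/7, a clonal embryonic fibroblast line derived from STO cells and stopped from dividing with mitomycin. Per the labels, germ cells were taken off the feeders and transfected on plastic with 75 pmol siRNA for 24 h, either a non-targeting control or one against Chd4, and equal cell numbers from 3 biological replicates were pooled into 1 droplet library per group. The germ cells described here therefore had been transfected and cultured for 24 h without a feeder layer beneath them, and the 78 feeder cells are those captured with them. With 1 library per group there is no replicate spread, so no test was possible, and every interval covers counting error only. The Chd4 siRNA library (760 germ cells and 89 feeder cells by the same rule) is given beside the control only as a second set of values from cells with another treatment. Chd4 itself was at 535.4 CPM (counts per 1000000 UMIs of the class) in germ cells of the control library and at 253.6 CPM in germ cells of the Chd4 siRNA library.

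Spermatogonial stem cells are the adult stem cells of the male germline, and in culture they multiply in response to GDNF, which signals through the receptor RET. They keep a germline programme that somatic cells silence, which includes the RNA-binding proteins DAZL and DDX4, the piRNA pathway that holds transposons in check, and many genes later used in meiosis. Part of this programme is silenced in somatic cells by the PRC1.6 complex, in which MGA with MAX and E2F6 bind E-box and E2F sequences at promoters.

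The germ cells held 11611323 named-gene UMIs in all, with a median of 15248.5 per cell (range 1348 to 37608) and 4022 genes detected in the median cell. The feeder cells were deeper, at a median of 38664.5 UMIs. After thinning to 9000 UMIs per cell, which left out 65 germ cells and 4 feeder cells, the medians were 2978 genes in 665 germ cells and 2694.5 genes in 74 feeder cells. All shares of cells with a UMI below are from these thinned cells. Of 27998 rows in the matrix, 26893 carried a gene name here, and the other rows held 12.1% of the UMIs. Chromosome 19, the end of chromosome 18 and mitochondrially encoded genes were not analysed here, which leaves out Gfra1 and Dmrt1. The barcode lists as held have 817 and 799 complete entries, the second fewer than that library's 860 cells, and 1 barcode was in both. Scrublet called 18 doublets in the control library, all within the germ class, and these were kept.

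The marker sums that define the classes lay far apart. The median germ cell held 27 UMIs of the 5 germ markers and 1 of the 5 fibroblast markers, and the median feeder cell held 2 and 72.5. Just inside the threshold were 5 germ cells whose germ sum was 1 above their fibroblast sum, and 9 germ cells were at most 3 above. Just outside were 2 cells with equal sums above 0 and 5 cells with no UMI of any marker. The 5 cells without any marker UMI were led by Hmga2, Zmat3, Gm26670, Vim and S100a6 relative to the germ class, and their Hmga2 stood at 921.8 CPM against 8.96 CPM in germ cells and 1176.4 CPM in feeder cells.

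**Figure D1:**
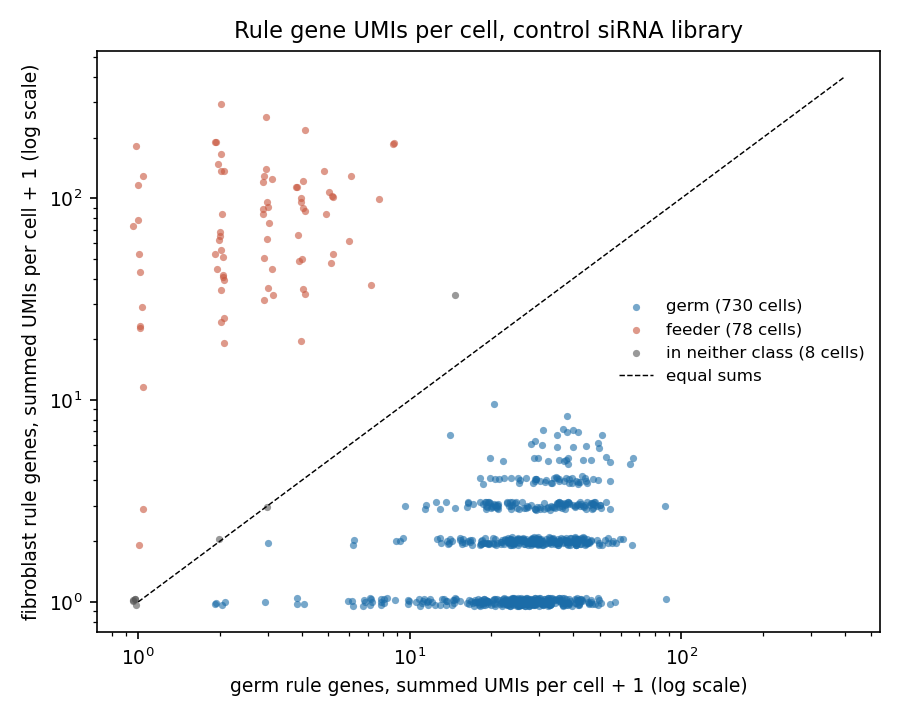
Summed UMIs of the 5 germ markers (horizontal) and of the 5 fibroblast markers (vertical) in each cell of the control library, both plus 1 and on log scales with a small horizontal and vertical jitter. The 730 germ cells lie below the dashed line of equal sums and the 78 feeder cells lie above it, with few cells between.

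The markers themselves chose the cells, so their values are a description. Dazl, which binds and regulates germ cell mRNAs, was the most abundant of them at 916.3 CPM in germ cells and 21.97 CPM in feeder cells. Mael, a piRNA pathway factor, was at 450.8 against 15.9 CPM, and Ddx4, the germ cell RNA helicase, at 187.2 against 7.01 CPM. Dnd1, an RNA-binding protein of early germ cells, was at 118.2 against 5.09 CPM, and Zbtb16, the zinc finger repressor of spermatogonial differentiation also called PLZF, at 102.1 against 1.91 CPM. Dazl was found in 99.8% of thinned germ cells and 13.5% of thinned feeder cells, while Zbtb16 was found in 58.5% and in 0 of 74, which allows a share of up to 4.86% by the exact interval. Without thinning the shares were 99.6% and 51.3% for Dazl and 73.6% and 7.69% for Zbtb16, at unequal depth. In the opposite direction, the matrix protein Fn1 was at 44.0 CPM in germ cells and 1134.3 CPM in feeder cells, and 32.3% of thinned germ cells held at least 1 Fn1 UMI against 98.6% of feeder cells (47.3% and 100% without thinning). Col1a2 was at 3.01 against 316.2 CPM.

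Many genes outside the rule differed between the classes. Across 12430 genes with at least 20 UMIs in both classes together, 2158 were at least 4-fold higher in germ cells (17.4%) and 1478 at least 4-fold lower (11.9%), with the rule genes left out. At 16-fold the counts were 598 higher and 557 lower. The median of all genes was a log2 ratio of 0.44, so a typical gene was slightly higher in germ cells. This central shift depends on the scaling to totals. With TMM factors all log2 ratios moved by -0.17 and with DESeq2 size factors by -0.22, and the share of the calls that were higher in germ cells went from 59.4% to 54.1% and 52.6%. With no minimum of UMIs 2225 genes were higher and 3672 lower, with 37.7% of the calls higher. These counts do not show a balance, because a class at 0 was set to 3 counts. A gene with 1 UMI in germ cells and 0 in feeder cells is then called lower, as for Pgk2 (log2 ratio -3.47). In the Chd4 siRNA library 2510 genes were higher (20.1%) and 1488 lower (11.9%) by the same rule. Of the control library's calls, 1840 of those higher (85.3% of the control calls and 73.3% of the other library's) and 1300 of those lower (88.0% and 87.4%) were also called there.

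**Figure D2:**
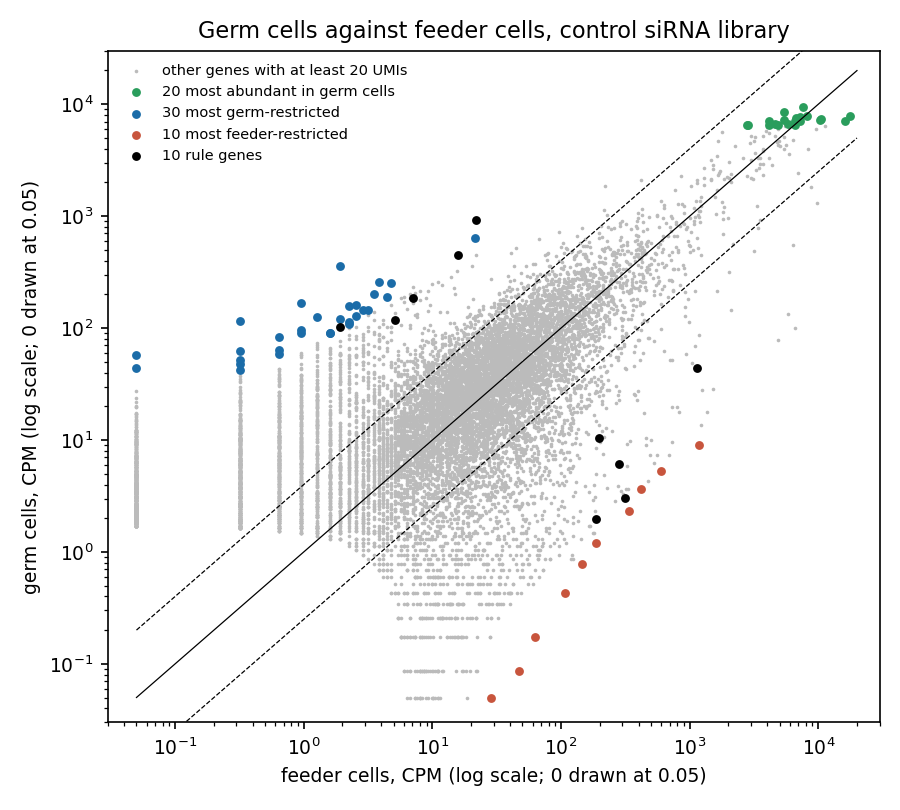
Level of each gene with at least 20 UMIs in feeder cells (horizontal) and germ cells (vertical) of the control library, in CPM on log scales, with 0 drawn at 0.05. The solid line marks equal levels and the dashed lines 4-fold, and the 20 most abundant genes lie near equality while the 30 most germ-restricted genes lie far above it.

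The most abundant transcripts of the germ cells were those of the translation machinery, and all 20 most abundant genes were within 4-fold of their feeder cell level. Levels are UMIs at transcript 3′ ends and are not divided by length. Rps18 led at 9436.7 CPM against 7531.8 CPM in feeder cells, followed by Rpl13a at 8505.7 against 5386.4 CPM. Of the 20 most abundant genes 19 encode cytosolic ribosomal proteins, and the exception was Ftl1, the light chain of the iron store ferritin, at 7081.5 against 16125.1 CPM. The 20 genes together took 14.49% of germ cell UMIs (interval 14.46% to 14.51%), and all 77 cytosolic ribosomal protein genes took 34.4% in germ cells and 34.0% in feeder cells. Single germ cells ranged from 11.1% to 55.8% in this share, with a median of 34.4%.

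Within the ribosomal group the members were not uniform. Of 64 listed genes, 0 were at least 4-fold higher in germ cells and 2 were at least 4-fold lower, with a median log2 ratio of 0.17 that became -0.05 with DESeq2 size factors. The 2 lower genes were Rpl39 at 1831.2 against 8799.3 CPM and Rps4x at 782.8 against 3397 CPM. Rpl35a and Rps24 leaned to germ cells, with log2 ratios of 1.20 and 1.21, and Rpl41 was at 7810.9 against 17546 CPM. The most abundant genes outside the ribosomal group after Ftl1 were Eef1a1, a translation elongation factor, at 4616.3 against 4747.2 CPM, and the metal-binding metallothionein Mt1 at 3145.5 against 1458.9 CPM.

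Some abundant genes were also at least 4-fold above their feeder cell level. Hsp90aa1, a stress-inducible HSP90 chaperone, was at 2104.2 CPM against 420.0 CPM, and Mt2, the second metallothionein, was at 1865.8 against 220.7 CPM. H2afv, a variant of histone H2A.Z, was at 1128 against 216.9 CPM, and Sdc4, a heparan sulfate proteoglycan of the cell surface, at 786 against 144.6 CPM. Stmn1, which destabilises microtubules, was at 719.1 against 95.9 CPM. Vps8, an endosomal tethering factor, was at 624.7 against 66.9 CPM. Parp1, a DNA damage sensor, was at 518.5 against 44.3 CPM, and Mphosph8, a reader of histone H3 lysine methylation in the HUSH silencing complex, at 468.9 against 41.1 CPM. These were chosen by level after their values were seen.

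At 16-fold or more the most abundant genes included many germline ones. Taf7, a subunit of the general transcription factor TFIID, was at 642.3 CPM in germ cells and 21.3 CPM in feeder cells (4.91 on the log2 scale, interval 4.57 to 5.28). Next came Rpl39l, a paralogue of Rpl39, at 610.4 against 22.3 CPM, the piRNA pathway co-chaperone Fkbp6 at 452.7 against 21.97 CPM, the X-linked deubiquitinase Usp26 at 361 against 1.91 CPM, and the deubiquitinase Uchl1, a spermatogonial marker, at 356.8 against 20.4 CPM. The list also held the meiotic genes Syce2 (323.5 CPM), Smc1b (259.2 CPM) and Sycp3 (216.0 CPM), the neurofilament gene Nefm (260.3 CPM) and the zinc finger gene Zic1 (206.9 CPM). Spint2 (285.3 CPM), Isyna1 (242.7 CPM), Chd3os (232.9 CPM), Snhg11 (199.6 CPM) and Chchd10 (189.2 CPM) were in it too. Nefm and Zic1 are better known from neural tissue.

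The 30 most germ-restricted genes were ranked by the interval bound nearest to 0 among genes with at least 50 UMIs, so their ratios were selected to be high and are given without support from them. Usp26 ranked first, with 4192 UMIs in germ cells and 6 in feeder cells, a log2 ratio of 7.56 (interval 6.44 to 9.01). It was found in 89.8% of thinned germ cells and 1.35% of thinned feeder cells (94.0% and 7.69% without thinning), and it stood at 7.33 in the Chd4 siRNA library. Rbm46, an RNA-binding protein needed for entry into meiosis, had 1334 UMIs against 1, a log2 ratio of 8.49 with a wide interval of 6.01 to 13.8. Auts2, a nuclear protein of a variant Polycomb complex, had 1961 UMIs against 3. Each of the 3 was detected in most germ cells, and the width of their intervals came from the low feeder counts.

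Meiotic chromosome genes formed one group among the 30. Smc1b, the meiotic cohesin subunit, was at 259.2 CPM against 3.82 CPM and was found in 80.2% of thinned germ cells. Syce3 and Tex12, which build the central element of the synaptonemal complex, were at 158.5 against 2.23 CPM and 120.0 against 1.91 CPM. Stk31, a germ cell protein with a Tudor and a kinase domain, was at 253.1 against 4.78 CPM. Surface and signalling genes included the adhesion molecules Epcam (160.7 against 2.55 CPM), Cadm1 (96.6 against 0.96 CPM) and Mpzl2 (84.0 against 0.64 CPM). Transcription factors were Lhx1, a LIM homeobox gene under GDNF control in these cells, at 90.3 against 0.96 CPM, En1, an engrailed homeobox gene, at 89.9 against 1.59 CPM, and the forkhead gene Foxr1 at 47.6 against 0.32 CPM.

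Sex-linked genes were the other large group, with 10 of the 30 on the X chromosome and Eif2s3y, a translation initiation factor gene, on the Y. Rhox7b, a reproductive homeobox gene, had 661 UMIs against 0, at least 59.6-fold higher when the feeder class is set to 3 counts. Gm6890 had 514 against 0, at least 46.3-fold higher. Other X-linked members were Mageb4, a MAGE family gene, at 144.2 against 2.87 CPM, Nxf2, an mRNA export factor, at 143.8 against 3.19 CPM, and Bex4 at 125.0 against 1.27 CPM. Rhox7b, Gm6890, Gm6880 and Xlr5c belong to families with close copies, and the sources used here do not say how reads shared by such copies were counted, so their levels are uncertain. Eif2s3y had 733 UMIs against 2, and Ddx3y, also Y-linked, had 241 against 4. Whether the feeder line carries a Y chromosome was not tested, so ratios of Y-linked genes need not be particular to germ cells.

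**Figure D3:**
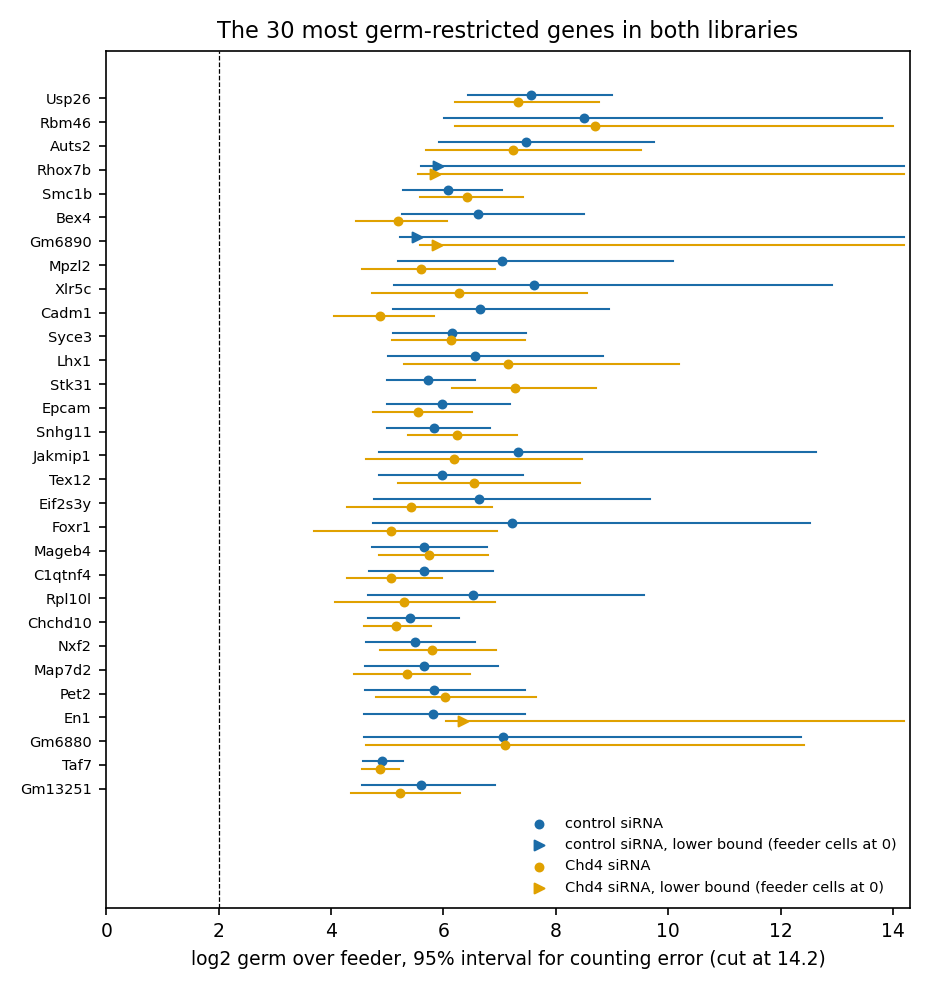
Log2 ratio of germ over feeder cells for the 30 most germ-restricted genes of the control library, in the control (blue) and the Chd4 siRNA library (orange), with 95% intervals for counting error. Triangles are lower bounds for genes with no UMI in feeder cells, the dashed line is 4-fold, and all 30 genes lie right of it in both libraries.

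Over both libraries the ranking was partly shared. Of the 30 genes, 14 were among the 30 of the Chd4 siRNA library and 25 among its first 100. Of the 20 most abundant genes 14 were shared. The calls were spread unevenly over the chromosomes. Among 479 tested X-linked genes 67 (13.99%) were at least 16-fold higher in germ cells, against 4.39% on autosomes 1 to 18, where single chromosomes ran from 3.08% to 6.28%. In the Chd4 siRNA library the X-linked share was 14.7%. The share at least 4-fold lower among X-linked genes was 18.2% against 11.7% on the autosomes, where single chromosomes ran from 5.82% to 17.2%, and the X chromosome as a whole took 2.08% of germ cell UMIs and 4.62% of feeder cell UMIs. Of 10 tested Y-linked genes 9 were at least 4-fold higher. Uty and Kdm5d, which encode proteins of the histone demethylase family, had 144 and 137 UMIs in germ cells and 0 in feeder cells.

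Promoters of genes in this programme were read from RefSeq (GRCm38.p6, 250 bases before to 50 after the annotated start) and are shown because they hold, or lack, the E-box and E2F letters bound by the PRC1.6 subunits. Motifs searched on both strands were the E-box CACGTG, which reads the same on both strands, and the E2F core GCGGGAA. Neighbouring matches can share 1 base, and capitals below mark these 2 motifs. A core sequence of the factor NRF1 was also searched and is not marked. Ddx4 lies at chr13:112652261-112652560 (minus strand), Rbm46 at chr3:82876434-82876733 (minus), Sycp3 at chr10:88459337-88459636 (plus), Tex12 at chr9:50561219-50561518 (minus), Nxf2 at chrX:134964705-134965004 (minus, 1 of 2 listed promoters) and Usp26 at chrX:51801184-51801483 (minus), each as the 300 bases 5′ to 3′ on the gene's strand.
Ddx4: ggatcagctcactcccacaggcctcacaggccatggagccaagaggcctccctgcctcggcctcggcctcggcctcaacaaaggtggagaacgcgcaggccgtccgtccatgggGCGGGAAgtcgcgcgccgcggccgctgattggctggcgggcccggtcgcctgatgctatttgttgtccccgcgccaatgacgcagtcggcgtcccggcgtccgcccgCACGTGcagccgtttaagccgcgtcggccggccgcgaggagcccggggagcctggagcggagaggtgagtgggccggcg
Rbm46: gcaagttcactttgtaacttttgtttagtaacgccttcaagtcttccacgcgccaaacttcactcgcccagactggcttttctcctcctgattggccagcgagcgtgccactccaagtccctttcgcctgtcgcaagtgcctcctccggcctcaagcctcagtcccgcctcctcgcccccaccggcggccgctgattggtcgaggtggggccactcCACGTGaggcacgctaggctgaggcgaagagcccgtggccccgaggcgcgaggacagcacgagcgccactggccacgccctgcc
Sycp3: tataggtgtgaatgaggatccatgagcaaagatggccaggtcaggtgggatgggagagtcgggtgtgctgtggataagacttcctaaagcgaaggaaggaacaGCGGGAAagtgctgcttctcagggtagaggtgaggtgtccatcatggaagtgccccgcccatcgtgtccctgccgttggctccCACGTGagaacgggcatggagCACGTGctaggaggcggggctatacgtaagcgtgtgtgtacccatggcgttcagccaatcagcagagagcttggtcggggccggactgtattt
Tex12: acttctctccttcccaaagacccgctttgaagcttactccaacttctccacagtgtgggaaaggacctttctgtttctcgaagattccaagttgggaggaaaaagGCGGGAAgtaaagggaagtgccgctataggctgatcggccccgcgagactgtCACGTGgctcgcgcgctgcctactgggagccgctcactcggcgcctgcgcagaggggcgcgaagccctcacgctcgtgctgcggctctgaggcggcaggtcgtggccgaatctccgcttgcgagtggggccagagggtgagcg
Nxf2: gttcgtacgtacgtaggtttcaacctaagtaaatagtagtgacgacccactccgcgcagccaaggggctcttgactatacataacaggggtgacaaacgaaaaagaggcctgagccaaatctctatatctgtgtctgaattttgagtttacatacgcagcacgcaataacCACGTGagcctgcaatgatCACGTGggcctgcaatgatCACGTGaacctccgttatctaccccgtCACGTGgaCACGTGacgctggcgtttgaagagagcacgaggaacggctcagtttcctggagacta
Usp26: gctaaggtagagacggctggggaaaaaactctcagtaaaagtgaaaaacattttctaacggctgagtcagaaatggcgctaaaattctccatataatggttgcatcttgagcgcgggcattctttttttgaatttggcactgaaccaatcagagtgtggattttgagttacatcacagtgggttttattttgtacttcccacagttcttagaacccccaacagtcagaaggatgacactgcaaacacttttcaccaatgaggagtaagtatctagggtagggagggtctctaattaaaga

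Ddx4 and Tex12 each held 1 E-box and 1 E2F core in these windows, with the E-box 29 and 93 bases before the start. Sycp3 held 2 E-boxes, at 64 and 43 bases before the start, and 1 E2F core. Rbm46 held 1 E-box 34 bases before the start, and the Nxf2 window shown held 5 E-boxes between 80 and 7 bases before it. The other listed Nxf2 promoter held 0 E-boxes and 1 E2F core. The Usp26 window held neither the E-box nor the E2F core, and it held 5 CpG dinucleotides against 38 in the Ddx4 window. The absence of a match says only that these letters are not in the window. Of all 32851 listed promoters, 7.15% held an E-box and 4.6% an E2F core. The E-box was in 10.3% of the 12073 promoters matched to tested genes, in 13.5% of those of genes at least 16-fold higher in germ cells (72 of 533) and in 5.03% of those of genes at least 16-fold lower (26 of 517). The E2F core was in 8.45%, 7.50% and 6.19% of the same sets, and the NRF1 core in 5.58%, 6.00% and 0.58%. These shares describe letters and not binding, and only 429 of the 598 genes that were 16-fold higher had a listed promoter.

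Gene groups were counted by the same 4-fold rule, to be read against the 17.4% higher and 11.9% lower among all tested genes and their median of 0.44. A member that met the 20 UMI minimum only through germ cells had to be higher there, so the counts describe the measured members. Genes at 0 UMIs in feeder cells entered medians at their lower bound.

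**Figure D4:**
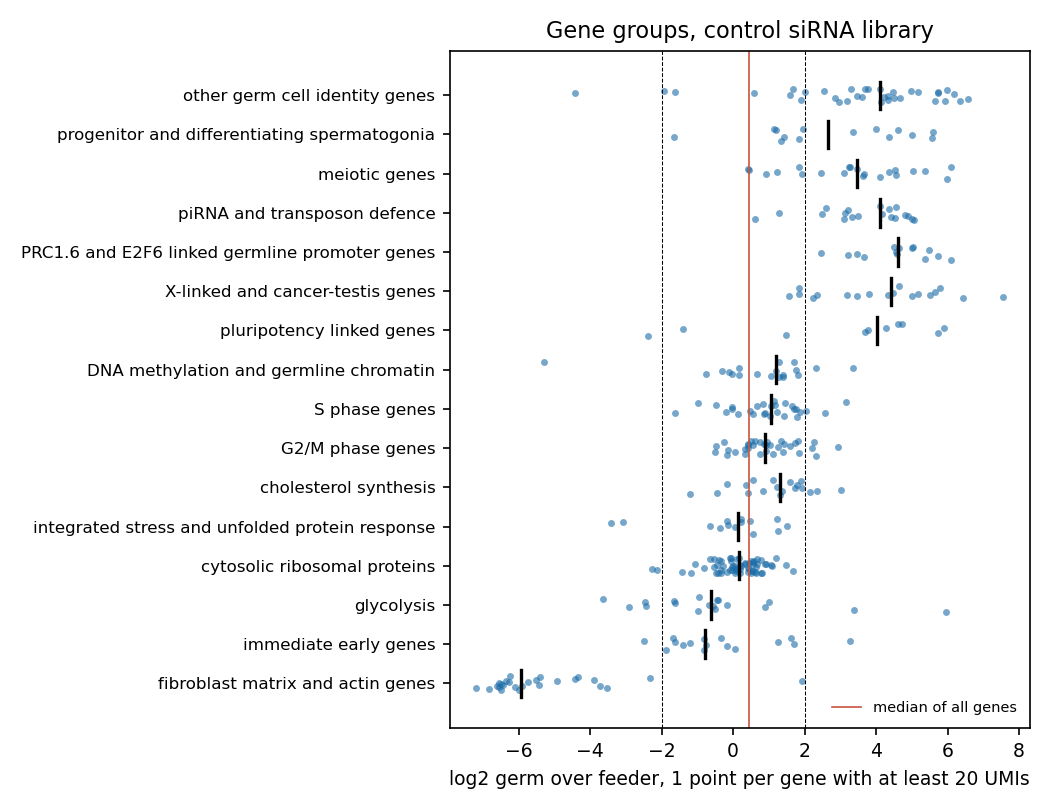
Log2 ratio of germ over feeder cells for members of 16 gene groups with at least 20 UMIs, 1 point per gene, with the group median as a black bar. Dashed lines mark 4-fold and the red line the median of all genes, and the germline groups lie to the right while the fibroblast group lies to the left.

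Germ cell identity genes other than the 5 markers were mostly higher in germ cells, 28 of 35 measured members, with 1 lower and a median log2 ratio of 4.10 (27 higher and 2 lower with both other scalings). GDNF receptor and response genes were among them, with the receptor Ret at 83.5 CPM against 4.14 CPM, Bcl6b at 79.8 against 2.23 CPM, and Etv5 at 79.3 against 13.7 CPM. Tex15, needed for transposon silencing in germ cells, was at 189.3 against 6.05 CPM and Tex101, a germ cell surface protein, at 179.6 against 7.96 CPM. Stem cell regulators were lower in level, with the RNA-binding protein Nanos2 at 25.8 against 0.32 CPM (299 UMIs against 1) and the HLH protein Id4 at 12.8 against 3.19 CPM, which is at the 4-fold line and falls under it with both other scalings. The 1 member that was lower was Thy1, at 39 UMIs (3.36 CPM) in germ cells and 71.7 CPM in feeder cells. THY1 is the surface protein by which the labels say the founding testis cells were selected.

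Progenitor and differentiation genes were split. Of 14 measured members 7 were higher, with a median of 2.65. Sohlh1, a transcription factor of differentiating spermatogonia, was at 102.1 against 3.19 CPM, and Dnmt3b, a DNA methyltransferase, at 35.5 against 3.50 CPM. Ccnd2, a D-type cyclin, was abundant in both classes at 644.1 against 290.1 CPM. The differentiation markers were near the limit of detection: all germ cells together held 17 UMIs of Kit, the receptor of differentiating spermatogonia, 28 of Stra8, the retinoic acid target that marks meiotic commitment, and 43 of Neurog3.

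Most meiotic genes were higher, 15 of 21 measured members with 0 lower and a median of 3.48, but their levels spread widely. The highest levels among them included the synaptonemal complex genes Sycp3 at 216.0 against 9.23 CPM and Sycp1 at 130.8 against 3.19 CPM, and Syce2 at 323.5 against 15.6 CPM. Other members had few UMIs. Spo11, which makes the meiotic DNA breaks, had 21 UMIs in all germ cells, Prdm9, which places them, had 20 and Dmc1, the meiotic recombinase, had 64. In the Chd4 siRNA library Sycp3 stood at 218.7 CPM and Smc1b at 263.4 CPM in germ cells. Markers of spermatids were low, with 6 of 10 at 0 UMIs in germ cells and a summed level of 14.9 CPM against 0.32 CPM in feeder cells. The 2 measured members, Tnp1 and Spaca1, were both at least 4-fold higher in germ cells.

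The piRNA and transposon defence genes were mostly higher, 17 of 19 measured members, with 0 lower and a median of 4.12. Fkbp6 led at 452.7 against 21.97 CPM, followed by Gtsf1, a cofactor of PIWI proteins, at 199.6 against 6.69 CPM and Mov10l1, the piRNA precursor helicase, at 186.6 against 6.69 CPM. Piwil2, the PIWI protein of spermatogonia, was at 89.1 against 3.82 CPM, whereas Piwil4, a PIWI protein of fetal gonocytes, was at 7.15 against 0.64 CPM. The exceptions were Tdrd7, at a log2 ratio of 0.61, and Dnmt3l, with 18 UMIs in germ cells and 2 in feeder cells.

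Genes with promoters linked to PRC1.6 and E2F6 were higher in all 14 measured members outside the rule, with a median of 4.61. Slc25a31, an ADP/ATP carrier of germ cells, was at 184.2 against 5.73 CPM, and Taf7l, an X-linked relative of Taf7, at 248.4 against 9.87 CPM. X-linked and cancer-testis genes were higher in 15 of 18 measured members, with a median of 4.41, and 3 listed members were under the minimum. Chromatin regulators themselves differed less. Of 19 measured DNA methylation and germline chromatin genes 2 were higher, Dnmt3b and E2f6 (55.9 against 11.2 CPM), and 1 was lower, the DNA demethylating enzyme Tet2 (0.34 against 13.4 CPM), with a median of 1.20. Mga, the PRC1.6 scaffold, was at 137.5 against 40.8 CPM, short of 4-fold.

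Pluripotency linked genes were present in part. Of 10 measured members 7 were higher and 1, Klf5, was lower, with a median of 4.03. Dppa5a was at 66.9 against 2.55 CPM, Pou5f1, which encodes OCT4, at 56.8 against 4.14 CPM, Dppa4 at 55.7 against 2.87 CPM and Zfp42, also called Rex1, at 38.0 against 0.64 CPM. Sox2 had 90 UMIs in germ cells and 1 in feeder cells. Nanog had 1 UMI among all 11611323 of the germ cells and 2 in the feeder cells, so no ratio is given.

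Metabolic and cell cycle groups showed smaller differences. Glycolysis genes had a median of -0.62, with 4 of 18 lower (Pfkl, Tpi1, Pgk1 and the glucose transporter Slc2a1) and 2 higher, the aldolase Aldoc at 59.5 against 0.96 CPM and the glucose transporter Slc2a3 at 26.5 against 2.55 CPM. Cholesterol synthesis genes had a median of 1.32 with 3 of 19 higher, Dhcr7 (3.01 on the log2 scale), Fdft1 (2.34) and Fdps (2.16), the last of which falls to 1.99 and 1.94 with TMM factors and DESeq2 size factors. S phase genes had a median of 1.05 with 3 of 28 higher (2 with both other scalings) and 0 lower. G2/M phase genes had a median of 0.89 with 4 of 34 higher (Ndc80, Bub1, Cdc20 and Cdca8; 3 with DESeq2 size factors) and 0 lower. Stress response genes had a median of 0.13, which becomes -0.04 and -0.09 with the other scalings, with 2 of 14 lower (Atf5 and Nupr1). Immediate early genes had a median of -0.79, with 1 of 16 higher, Egr2 (52.7 against 5.41 CPM), and 1 lower, Fosb, or 2 lower with both other scalings.

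Markers of other cell types were mostly low in the germ class, and some were above their feeder cell level. Fibroblast matrix and actin genes were lower in 25 of 26 measured members, with a median of -5.95. The galectin Lgals1 was at 547.8 CPM in germ cells against 6301.3 CPM in feeder cells, the calcium-binding S100a6 at 134.9 against 5791.8 CPM, the protease inhibitor Timp1 at 28.4 against 1509.8 CPM and the intermediate filament Vim at 17.9 against 1357.9 CPM. The 10 most feeder-restricted genes were led by Hmga2, a chromatin protein of fetal and transformed cells, with 104 UMIs in germ cells against 3694, and included the nuclear receptors Nr2f1 and Nr2f2, the proteoglycan Dcn (2.33 against 338.5 CPM) and the hyaluronan receptor Cd44 (3.62 against 414.9 CPM). Sertoli cell markers summed to 238.3 CPM in germ cells and 1185 CPM in feeder cells, most of it Ctsl at 211.5 CPM. Amh, Fshr, Dhh and Gata1, which are among the 7 listed markers under the UMI minimum, had 1, 1, 0 and 0 UMIs in germ cells. Of 7 measured Sertoli markers 4 were at least 4-fold lower in germ cells and 1 was at least 4-fold higher (3.64 on the log2 scale). Among the lower was Sox9, at a log2 ratio of -4.13 and found in 9.32% of thinned germ cells. Leydig cell markers summed to 2.58 CPM with 5 of 7 at 0, and peritubular myoid markers to 3.96 CPM. Macrophage and leukocyte markers summed to 14.6 CPM with 5 of 9 at 0, nearly all of it Cd68. In feeder cells these sums were 0.64, 48.1 and 1.27 CPM. Star and Cd68, the only measured Leydig and macrophage markers, were at least 4-fold higher in germ cells. Endothelial markers summed to 60.1 CPM in germ cells and 17.5 CPM in feeder cells, most of it Egfl7 at 47.1 CPM. Cldn5 and Cdh5, both under the UMI minimum, had 1 and 11 UMIs in germ cells. The 3 measured endothelial markers, Egfl7, Kdr and Pecam1, had log2 ratios from 0.92 to 2.83. Of these 1 was at least 4-fold higher in germ cells and 0 were lower.

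Several germline genes occur as copies of a more widely used gene, and the share of the copy was compared in 10 such pairs. The pairs were chosen after their values were seen, and reads shared by close copies may have been assigned to either. Rpl39l made up 25% of the UMIs of Rpl39l and Rpl39 together in germ cells (interval 24.5% to 25.5%) and 0.25% in feeder cells. The copy made up 45.7% against 0.77% for Slc25a31 beside Slc25a5, which encode ADP/ATP carriers, and 52.1% against 1.49% for Cox7b2 beside Cox7b, subunits of cytochrome c oxidase. It was 47.2% against 0.52% for the tubulin Tuba3b beside Tuba1b, 41.5% against 3.12% for the transketolase-like Tktl1 beside Tkt, and 24.5% against 0.26% for Aldoc beside Aldoa. Shares were smaller for Rpl10l beside Rpl10, at 4.50% against 0.02%, and for Cox6b2 beside Cox6b1, at 3.93% against 0.25%. Ldhc beside Ldha was at 4.46% (52 UMIs) against 0 of 936 feeder UMIs, and Pgk2, with 1 UMI in germ cells and 0 in feeder cells, had too few UMIs for a comparison. The more widely used gene was at a lower level in germ cells in most of these pairs. Their log2 ratios ran from -3.63 for Pgk1, with 29 UMIs in germ cells, and -2.27 for Rpl39 to -0.99 for Aldoa. For Tkt the interval of the ratio included 0 (-0.41 to 0.18), and Cox6b1 was at 889.6 against 776.4 CPM.

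Feeder cells held some germline UMIs. The feeder level was 2.40% of the germ level for Dazl and 3.74% for Ddx4, both used to define the classes, and 0.53% for Usp26, which was ranked first for this ratio. Feeder cells had been in culture with germ cells and were deeper, and whether these UMIs came from free RNA, from joined cells or from the feeder cells themselves was not tested.

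Variability among germ cells was measured as the Fano factor (variance over mean) of the 665 cells thinned to 9000 UMIs, divided by the median Fano factor of genes of similar mean in 20 bins. Of 7488 genes with a thinned mean of at least 0.1 UMI, 214 (2.86%) had a ratio of at least 1.5. The share called rose with mean level, from 2 of 375 genes in the lowest bin to 93 of 374 in the highest, 61 of them ribosomal. Gene groups below were not matched for mean level. The 3 biological replicates were pooled with no label per cell, so variability among cells cannot be told apart from differences between the replicates. In the Chd4 siRNA library 171 of the 214 were also called (79.9%), as were 25 of the 30 most variable genes among its own 30.

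The metallothioneins Mt1 and Mt2 had ranks 1 and 3 by Fano ratio, around Pola1, which rested on few cells. With 100 bins their ranks were 5 and 2. By the squared coefficient of variation beyond counting noise they did not lead, with ranks of 1192 and 1070. Mt1 had a median of 24 UMIs per thinned cell, from 6 at the 5th percentile to 71.6 at the 95th and 161 in the highest cell, and a Fano ratio of 10.3. Mt2 had a median of 14 UMIs, a 95th percentile of 45.8 and a ratio of 6.82. Mt1 and Mt2 varied together over the 665 cells, with a Pearson correlation of 0.77 (0.69 over 695 cells of the Chd4 siRNA library). The range was continuous and nearly all cells held both, 99.5% with Mt1 and 98.3% with Mt2. Ftl1, the ferritin chain, followed at a ratio of 5.80 with a median of 60 UMIs (30 to 110 at the 5th and 95th percentiles).

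Cell division genes formed the second group. Cenpf, a centromere protein, had a median of 1 UMI, a 95th percentile of 9 and a ratio of 3.93, and Ube2c, Top2a and the chromatin protein Hmgb2 had ratios of 3.53, 3.48 and 3.26. Cenpf correlated with Top2a at 0.62 and Top2a with Hmgb2 at 0.66. Of 33 measured G2/M phase genes 16 were called, against 2 of 26 S phase genes. Immediate early genes were called in 7 of 13 cases, among them Fos, Jun and Junb, and stress response genes in 4 of 9, namely Hspa5, Ddit3, Herpud1 and Atf4.

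Calls in germline groups are to be read against the 2.86% of all genes and the rise of that share with mean level. No measured piRNA gene was called (0 of 16), nor any of the 5 marker genes, and these groups are too small to stand apart from that share. Of 12 meiotic genes 2 were called (16.7%), Sycp3 and Smc1b, the latter at a ratio of 1.98, and of 16 genes linked to PRC1.6 and E2F6, rule genes included, 4 were called. Of 1162 genes at least 4-fold higher in germ cells 55 were called (4.73%). Among 30 germ cell identity genes 6 were called (20%): Elavl2, Egr4, Nanos3, Bcl6b, Lhx1 and Pou5f1. Of these Lhx1 was found in 44.5% of thinned cells with a ratio of 1.57. Among the germ-restricted genes En1 had a ratio of 2.09, whereas Usp26 and Rbm46 had 1.15 and 1.01. Nefm, the neurofilament gene, was the most variable gene of those at least 16-fold higher in germ cells, with a median of 1 UMI, a 95th percentile of 8, a highest value of 28 and a ratio of 3.995. Vps8 had a median of 4 UMIs, a 95th percentile of 17 and a highest value of 60, with a ratio of 4.48.

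**Figure D5:**
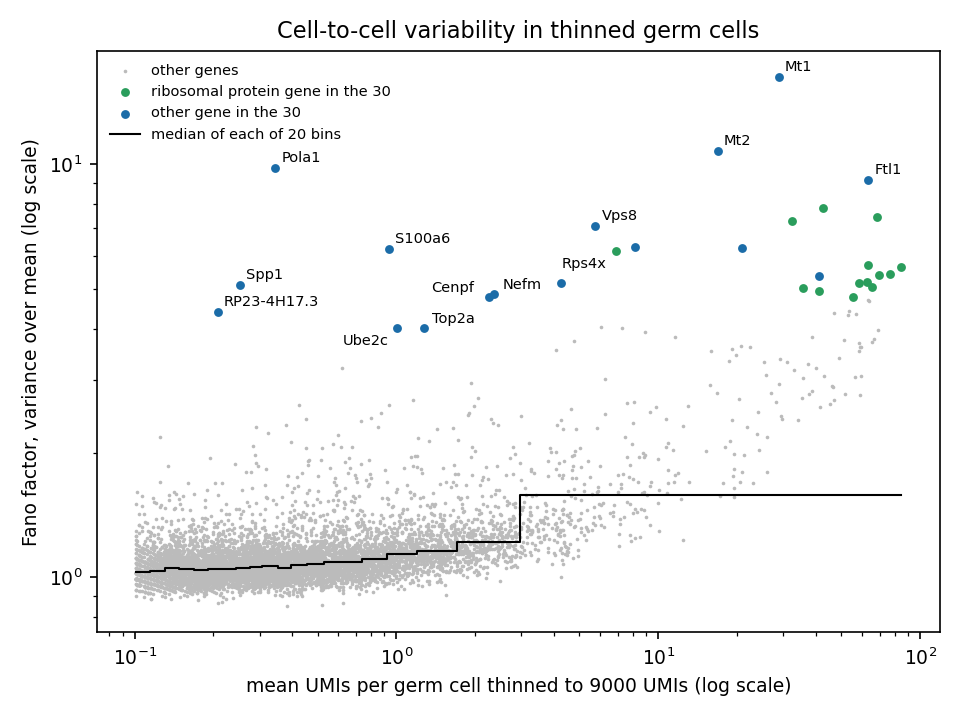
Fano factor against mean UMIs for 7488 genes in 665 germ cells thinned to 9000 UMIs each, on log scales, with the bin median as a black line. The 30 genes with the highest ratio are coloured, ribosomal protein genes in green, and Mt1, Pola1 and Mt2 stand highest above the line.

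The ribosomal genes among the 30 depended on the binning. They made up 14 of the 30, and 61 of 77 were called, but all lay in the last bin, where means ran from 2.96 to 84.8 UMIs. With 100 bins, an alternative added after the data were seen, 3 of the 30 were ribosomal and 17 of the 30 genes were shared. Ranked by the squared coefficient of variation beyond counting noise, 0 were ribosomal and 4 were shared.

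Some of the variable genes rested on few cells. Pola1, a DNA polymerase subunit, had a ratio of 9.24, but 539 of 730 germ cells held none of it, 1 cell held 47 UMIs and the next 25, and its ratio in the Chd4 siRNA library was 2.28. The transcript RP23-4H17.3 had 49.3% of its thinned UMIs in 10 cells. Spp1, which encodes the secreted protein osteopontin and was at 28.0 CPM in germ cells against 1249.3 CPM in feeder cells, had 30.4% in 10 cells. The gene most correlated with each of Pola1, RP23-4H17.3, Spp1 and Vps8 reached only 0.17, 0.17, 0.18 and 0.22, and in the Chd4 siRNA library these pairs reached at most 0.05. The next partner of Spp1, Sqstm1, stood at 0.18 and 0.175 in the 2 libraries.

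A large part of the S100a6 variability came from 5 cells. These germ cells held at least 20 S100a6 UMIs each (55 to 122) and together 450 of the 1566 S100a6 UMIs of the class (28.7%), a choice made after the values were seen. Their germ marker sums were 1 to 26 with a median of 2, and fibroblast matrix and actin genes other than S100a6 took a median of 2.06% of their UMIs, against 0.05% in the other 725 germ cells and 1.31% in feeder cells. Without them the S100a6 Fano ratio went from 5.49 to 2.33, still above 1.5, and its log2 ratio from -5.42 to -5.91, while the counts of genes higher and lower in germ cells became 2164 and 1482 and the Fano calls 210.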

How the data were processed

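The authors deposited raw UMI counts per gene and cell, whole numbers per the file headers and the values. Per the labels' protocols the libraries were made with 10x Genomics version 2 chemistry. The submitters' processing notes name Cell Ranger 2.1.0, Seurat and mm10, and the calling of cells is not stated there. The last cell of each deposited matrix was incomplete as held and was left out. The members and gene lists were chosen with earlier results of these data known.

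Counts were summed over germ cells and over feeder cells, leaving out unnamed rows, and divided by the class total to give CPM. Ratios carry exact conditional binomial 95% intervals, and shares exact binomial (Clopper-Pearson) ones. Genes needed at least 20 UMIs in both classes together to be counted and 50 to be ranked, and a class at 0 was set to 3 counts per class for a bound. Named genes were the 20 most abundant, the 30 most germ-restricted and 10 most feeder-restricted, the 30 most variable with the closest partner of the first 10, up to 4 members per list by level, and the rule genes. Others were taken to describe a list or are said to be chosen later. Cells were thinned once with a fixed seed. Scrublet (scanpy 1.11.5) was run at an expected rate of 1%. No p-value was computed. The ratio and Fano ratio steps were run on simulated counts without free RNA, joined cells or unequal depth among cells, so those were not tested. Promoters came from RefSeq (GRCm38.p6) and chromosomes from GENCODE M21. TMM factors (edgeR 4.0.16) and DESeq2 1.42.0 size factors, in R 4.3.3, were used for scaling only.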

Additional observations from a re-analysis of the deposited data

How the results depend on the processing

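With 1 library per group, no replicate could be left out, and the intervals cover counting error only. The median of the stress response group changed sign with both other scalings, as given above. That of the ribosomal group changed sign with DESeq2 size factors only and was 0.004 with TMM factors. Single genes with ratios near 0 also change sign. Requiring at least 100 UMIs per gene left 1342 genes at least 4-fold higher and 830 at least 4-fold lower in germ cells, since fewer genes were counted. With no minimum 2225 were higher and 3672 lower, where genes with few germ UMIs and none in feeder cells are called lower through the 3-count setting. The 20 most abundant genes took 14.51% of germ cell UMIs with doublets removed, 14.33% as a mean of per-cell CPM and 7.891% when ribosomal protein genes were left out of the totals. Genes with a Fano ratio of at least 1.5 numbered 127 when cells were thinned to 5000 UMIs and 119 when a thinned mean of at least 0.5 was required. The counts of germ and feeder cells and of 4-fold genes stayed within 1.5 times of the values given with stricter marker rules, at least 5000 UMIs per cell, doublets removed and other scalings. Germ cells without any fibroblast marker UMI, and germ cells with under 20 S100a6 UMIs, were alternatives added after the data were seen. Over the alternatives run the Fano ratio of Mt1 ranged from 4.864 to 12.68, that of Pola1 from 2.953 to 13.63, that of S100a6 from 2.335 to 27.35 (the highest when thinned to 5000 UMIs) and that of Spp1 from 2.191 to 8.927. No paired analysis was possible because each group has 1 pooled library and no test was made.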
